A study of Mus musculus with 45 samples.

Results

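Gh, Prl, Tshb, Pomc, Cga, Lhb and Fshb encode the hormones of the anterior and intermediate pituitary, and Pou1f1 encodes a transcription factor of the cells that make several of them. These 8 genes were chosen by name after an earlier look at the same arrays, and were selected on their values there, which were low on most arrays and high on a few. Where they were found is therefore given as a description. A value was available for 7 of the 8 genes, among 17097 genes measured in the whole series, and Pou1f1 was not analysed here. Tumours grown in mouse brain as a model of glioblastoma were profiled on 45 Affymetrix arrays, and each value is the log2 signal of 1 probe set, a group of short probes against 1 transcript. Per the series description, primary mouse astrocytes without p53 received retroviral constructs of mutant or unmutated PDGFRA, the receptor of platelet-derived growth factor. All tumours carried the p53-null background and the strain given was CD-1 nude, a mouse without a thymus. The Pdgfra genotypes, spelled as in the labels, were D842V (n = 5), a substitution in the kinase domain, C450 ins (n = 5), E10 del (n = 5), V544ins (n = 9), E10 del.v2 (n = 9), E7 del (n = 3) and WT (n = 1). The other oncogene was EGFRvIII (n = 8), a shortened epidermal growth factor receptor that signals without ligand. The labels do not say whether replicates are separate animals or cultures, so a p-value here covers the spread among the arrays, part of which may be technical.

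The pituitary lies below the hypothalamus, to which a stalk joins it, and its hormones are made by separate cell types. Somatotropes make growth hormone (Gh), lactotropes make prolactin (Prl) and thyrotropes make thyrotropin, and these 3 cell types depend on POU1F1. Thyrotropin, luteinising hormone and follicle-stimulating hormone share the alpha subunit encoded by Cga, and each has its own beta subunit, encoded by Tshb, Lhb and Fshb. Pomc encodes the precursor of adrenocorticotropin and melanocyte-stimulating hormone, which corticotropes of the anterior lobe and melanotropes of the intermediate lobe make, and it is also transcribed in neurons of the arcuate nucleus. The pars tuberalis, the sheet of pituitary tissue around the stalk below the median eminence, makes Tshb and Cga with little growth hormone or prolactin.

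Promoter windows of Prl, Tshb, Pomc and Cga are shown because these genes were seen on different sets of arrays. They are RefSeq sequences of build GRCm38.p6 and run 250 bases before to 50 bases after a transcription start. The Prl window is chr13:27057320-27057619 on the + strand, the Tshb window chr3:102782665-102782964 on the - strand, the Pomc window chr12:3954695-3954994 on the + strand and the Cga window chr4:34893529-34893828 on the + strand. Capitals mark matches of ATGNATA, a core of the POU1F1 motif, and of TATAAA, the TATA box, each searched on both strands, and TTTATAAA holds TATAAA on both strands at once.
Prl: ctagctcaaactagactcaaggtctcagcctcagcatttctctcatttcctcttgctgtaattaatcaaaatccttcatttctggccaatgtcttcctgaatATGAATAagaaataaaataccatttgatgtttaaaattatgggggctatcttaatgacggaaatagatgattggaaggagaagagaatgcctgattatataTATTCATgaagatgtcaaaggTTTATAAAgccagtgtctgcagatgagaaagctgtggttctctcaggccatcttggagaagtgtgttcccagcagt
Tshb: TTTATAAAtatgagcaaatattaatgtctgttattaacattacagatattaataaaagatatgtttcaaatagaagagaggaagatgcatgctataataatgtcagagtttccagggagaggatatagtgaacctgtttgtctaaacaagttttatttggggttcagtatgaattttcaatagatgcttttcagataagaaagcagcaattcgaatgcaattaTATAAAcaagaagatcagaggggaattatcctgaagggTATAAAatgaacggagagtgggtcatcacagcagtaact
Pomc: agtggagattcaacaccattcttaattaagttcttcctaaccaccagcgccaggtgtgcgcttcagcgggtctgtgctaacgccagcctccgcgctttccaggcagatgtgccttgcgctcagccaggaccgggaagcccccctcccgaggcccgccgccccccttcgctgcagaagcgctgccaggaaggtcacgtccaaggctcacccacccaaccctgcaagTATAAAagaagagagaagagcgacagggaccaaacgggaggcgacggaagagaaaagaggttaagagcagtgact
Cga: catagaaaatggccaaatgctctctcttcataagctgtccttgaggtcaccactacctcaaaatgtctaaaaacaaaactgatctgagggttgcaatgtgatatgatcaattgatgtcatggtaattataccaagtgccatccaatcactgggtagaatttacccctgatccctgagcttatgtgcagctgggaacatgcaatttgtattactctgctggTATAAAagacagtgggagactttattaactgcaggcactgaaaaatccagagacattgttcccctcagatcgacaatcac
The Prl window held ATGNATA at 2 places, at positions -148 and -47 from the start, and the windows of Tshb, Pomc, Cga, Lhb and Fshb held 0. A match stood in 8.84% of 32851 mouse promoter windows of this length. TATAAA stood in all 6 of those member windows and in 13.6% of all windows, and TAATCC, a core of the PITX motif, in 0 member windows and 7.06% of all. A match is a description of letters in this window, and no statement about binding follows from it.

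On most arrays no hormone gene rose far above its own median, which does not show that the transcripts were absent. A gene was counted as carried by an array when its signal lay at least 2 log2 units, or 4-fold, above the gene's own median of 45 arrays and above the median of the whole table, 4.79. By that count 11 of the 45 arrays carried at least 1 hormone gene and 34 carried none. Prl was carried by 10 arrays, Gh by 7, Pomc and Cga by 4 each, Tshb and Fshb by 2 each and Lhb by 1. Of the 11 arrays, 3 carried 1 gene, 5 carried 2, and the others carried 4, 6 and 7. V544ins had 5 such arrays of 9, C450 ins 2 of 5, E10 del 2 of 5 and D842V 1 of 5, E10 del.v2, E7 del and WT had 0, and EGFRvIII had 1 of 8. In bulk RNA, fewer cells of a type and less RNA per cell cannot be told apart.

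**Figure D1:**
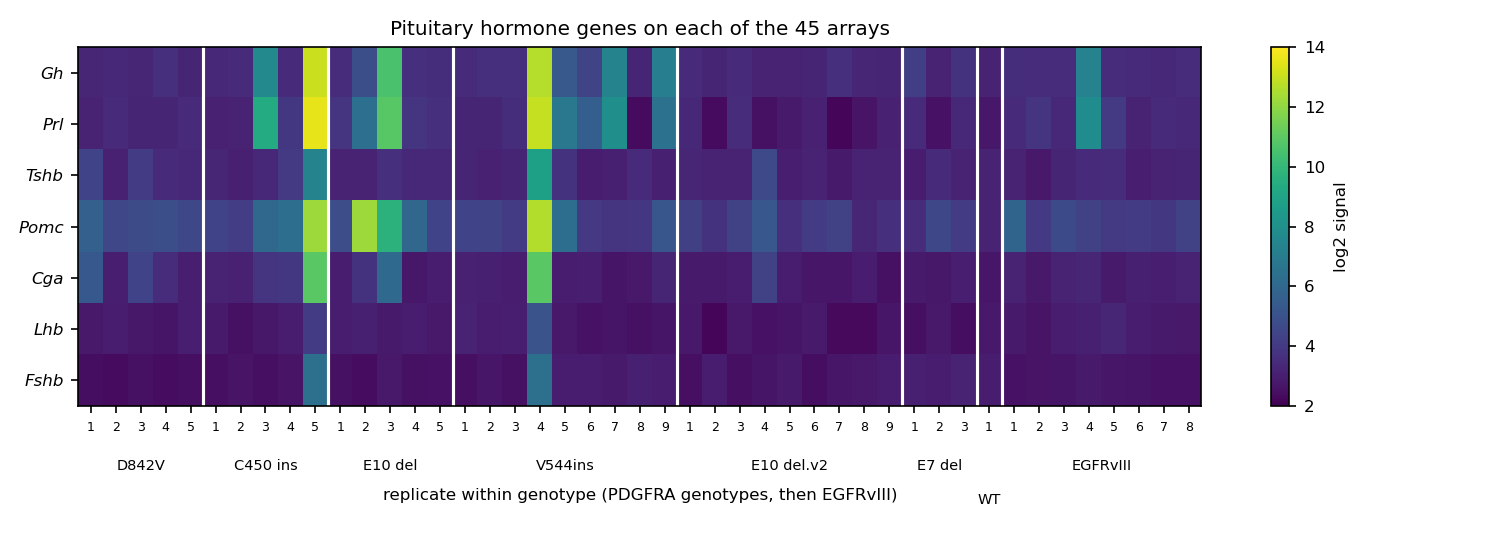
Log2 signal (colour) of the 7 measured hormone genes (rows) on each of the 45 arrays (columns, by genotype and replicate). The bright columns are C450 ins replicate 5 and V544ins replicate 4, where all 7 genes had their highest or second highest value except Pomc on C450 ins replicate 5, which was the third; E10 del replicate 3 follows, and E10 del replicate 2 is bright for Pomc.

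The same count over all 17097 genes gives the background on each array. It was 0.889% on C450 ins replicate 5, which carried 6 of the 7 hormone genes, and 1.16% on V544ins replicate 4, which carried 7. On E10 del replicate 3, with 4 hormone genes, it was 2.75%, and on E10 del replicate 2, with 2, it was 2.95%. C450 ins replicate 3 carried 2 against a background of 0.357%, V544ins replicate 7 carried 2 against 0.345%, and V544ins replicate 9 carried 2 against 0.234%. EGFRvIII replicate 4 carried 2 against 2.77%. A single hormone gene each was carried by V544ins replicate 5 (1.06%), V544ins replicate 6 (0.175%) and D842V replicate 1 (1.71%). E10 del.v2 replicate 4, described below for its neighbouring genes, carried 0 against 0.632%. Since the genes were chosen for being high on a few arrays, nothing is read from these counts.

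Gh, on chromosome 11 at 106300261 to 106303703 in GRCm38.p6, encodes growth hormone, which drives body growth largely through IGF1. Its median over the 45 arrays was 3.51, and 9 arrays were above the table median. It reached 13.03 on C450 ins replicate 5 and 12.66 on V544ins replicate 4, near the top of the whole table at 13.82. E10 del replicate 3 had 10.57, C450 ins replicate 3 had 7.63, V544ins replicates 7 and 9 had 7.37 and 7.15, and EGFRvIII replicate 4 had 7.32. Below the 2-unit line lay V544ins replicate 5 at 5.36, E10 del replicate 2 at 4.89 and V544ins replicate 6 at 4.47, and no other array was above 4.24. The 4 Gh probe sets gave the same picture, being carried by 7, 8, 9 and 7 arrays. The additional arrays were V544ins replicate 5 for a pair of probe sets and E10 del replicate 2 for 1 of them.

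Prl, on chromosome 13 at 27057570 to 27065204, encodes prolactin, the hormone of lactation. Its median was 3.41, and it reached 13.54 on C450 ins replicate 5, 12.94 on V544ins replicate 4 and 10.90 on E10 del replicate 3. The next values were 9.39 on C450 ins replicate 3, 8.00 on V544ins replicate 7 and 7.83 on EGFRvIII replicate 4. All 7 arrays that carried Gh also carried Prl. Prl was carried by 3 more, at 6.81 on V544ins replicate 5, 6.36 on E10 del replicate 2 and 5.58 on V544ins replicate 6, and V544ins replicate 9 had 6.51. A gap separated these from the rest, since the lowest array counted stood 2.17 log2 units above the median and the next array, EGFRvIII replicate 5 at 4.06, only 0.65. Gh also showed a gap, with V544ins replicate 9 at 3.64 units above its median and V544ins replicate 5 at 1.85.

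Tshb, on chromosome 3 at 102777398 to 102789082, encodes the thyrotropin beta subunit and was the least often carried of the genes that depend on POU1F1. It was 8.84 on V544ins replicate 4 and 7.36 on C450 ins replicate 5, against a median of 3.23. E10 del replicate 3, where Gh and Prl both exceeded 10 log2 units, had a Tshb signal of 3.66. The next highest Tshb signals came from other arrays, at 4.63 on E10 del.v2 replicate 4, 4.40 on D842V replicate 1, 4.15 on D842V replicate 3 and 4.02 on C450 ins replicate 4. All 4 were below the table median and none of these 4 arrays carried Gh or Prl.

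Pomc, on chromosome 12 at 3954945 to 3960643, followed an order of its own. It was 12.59 on V544ins replicate 4, 12.23 on both C450 ins replicate 5 and E10 del replicate 2, and 9.73 on E10 del replicate 3. E10 del replicate 2 thus had a Pomc signal as high as the arrays with all hormones, while its Gh signal was 4.89 and its Prl signal 6.36. Conversely, V544ins replicate 7 and EGFRvIII replicate 4 carried Gh and Prl with Pomc at 3.79 and 4.36, below its median of 4.41. Pomc also had intermediate values on several arrays. It was 6.34 on V544ins replicate 5, 6.32 on C450 ins replicate 4, 6.07 on C450 ins replicate 3, 5.96 on E10 del replicate 4, 5.85 on EGFRvIII replicate 1 and 5.66 on D842V replicate 1, and 15 arrays in all exceeded the table median. At 1 log2 unit above the median in place of 2, Pomc was carried by 10 arrays.

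Cga, on chromosome 4 at 34893779 to 34907374, encodes the common alpha subunit. It was 10.94 on C450 ins replicate 5, 10.91 on V544ins replicate 4 and 6.12 on E10 del replicate 3, against a median of 3.01. D842V replicate 1 came next at 5.28, with Gh at 3.29 and Prl at 3.15, both within the range of the other D842V arrays or below it. Just under the line lay D842V replicate 3 at 4.39 and E10 del.v2 replicate 4 at 4.36, and C450 ins replicate 4 had 3.95. Those 4 arrays were also the 4 with the highest Tshb outside C450 ins replicate 5 and V544ins replicate 4, so somewhat higher Cga and Tshb signals stood together on arrays without Gh and Prl. None of these intermediate Tshb values passed the count.

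Fshb and Lhb encode the beta subunits of the gonadotropins. Fshb, on chromosome 2 at 107055986 to 107059651, was 6.45 on V544ins replicate 4 and 6.43 on C450 ins replicate 5, and at most 3.16 on any other array. Lhb, on chromosome 7 at 45417608 to 45421855, was 5.08 and 4.10 on the same arrays, and only the first passed the count. Both genes therefore stood above their medians of 2.66 and 2.82 on the arrays that held every other hormone, and on E10 del replicate 3 they were 2.81 and 2.85. Tshb, Lhb and Fshb did not pass the filter of signals above the table median on at least 3 arrays, and 4 of the 7 genes, Gh, Prl, Pomc and Cga, did. Cga and Prl exceeded the table median only on the 4 and 10 arrays that carried them.

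**Figure D2:**
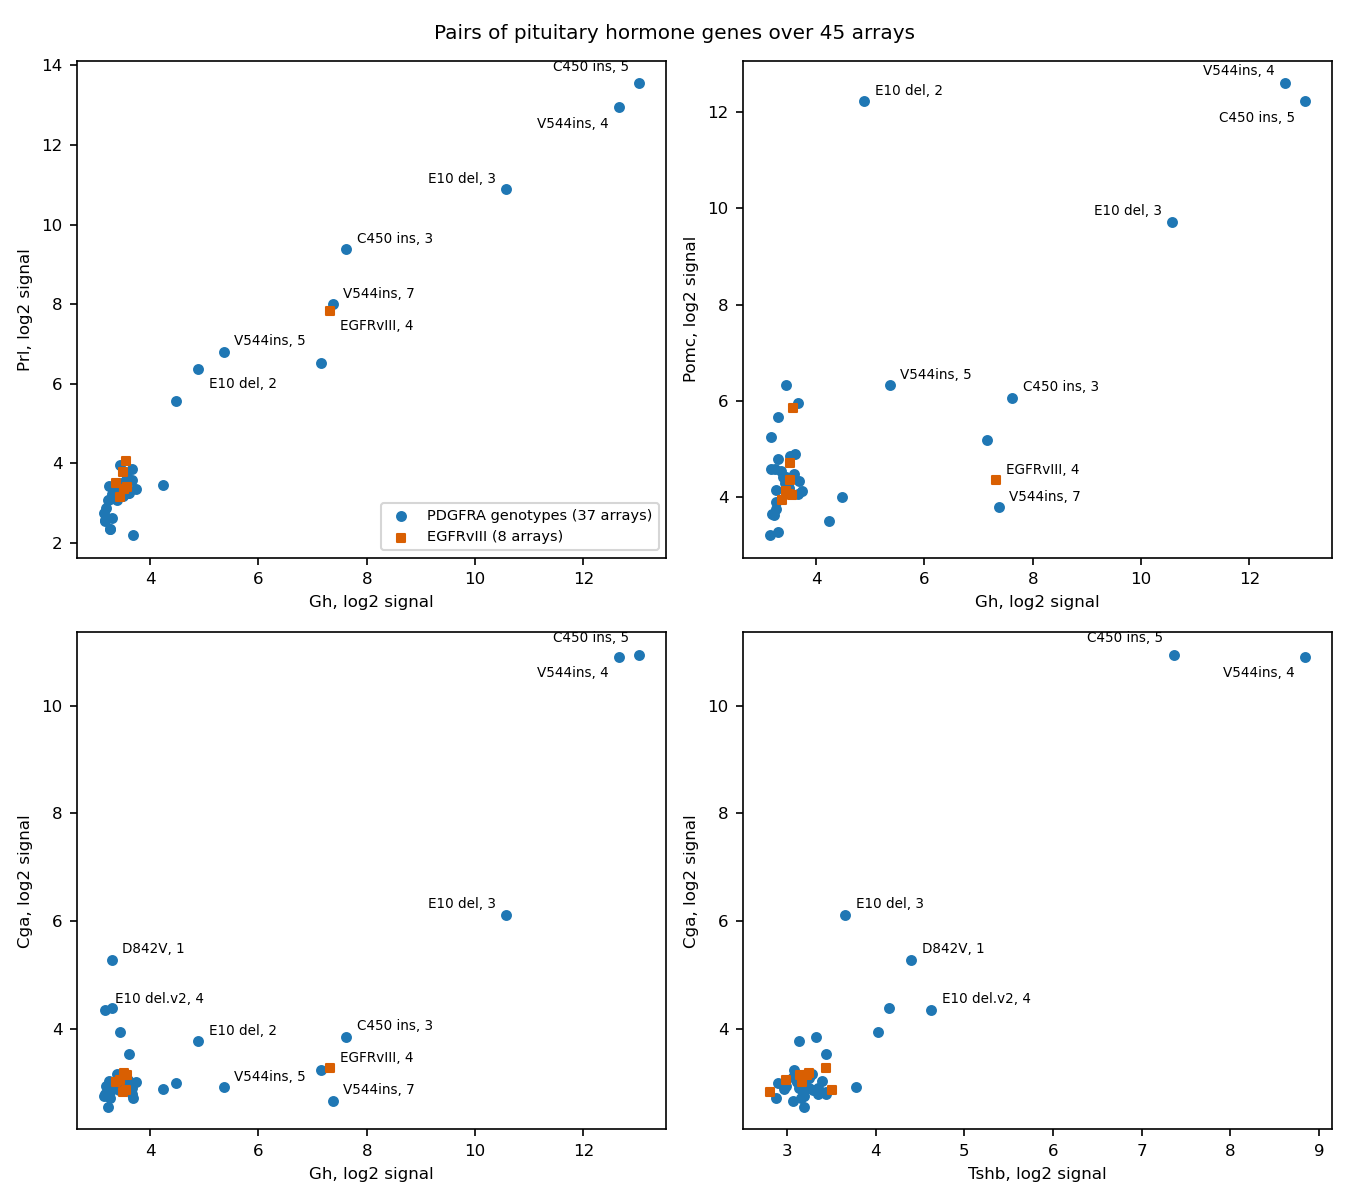
Log2 signals of pairs of hormone genes over the 45 arrays (points; circles for PDGFRA genotypes, squares for EGFRvIII; labels give genotype and replicate). Gh and Prl lie along 1 line up to 13.03 and 13.54; Pomc at 12.23 stands apart from Gh at 4.89 on E10 del replicate 2; Cga and Tshb on D842V replicate 1 and E10 del.v2 replicate 4 lie above the cloud while Gh stays near 3.

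The hormones of the cell types overlapped in the arrays that carried them. Some sets lay wholly within another, as Gh and Pomc each did within Prl, and others overlapped in part. Gh and Prl shared 7 arrays, which were 100% of the Gh arrays and 70% of the Prl arrays. Pomc and Prl shared 4, which were 100% of the Pomc arrays and 40% of the Prl arrays, and Gh and Pomc shared 3, or 42.9% and 75%. Gh and Cga also shared 3, or 42.9% and 75%, and D842V replicate 1 was the Cga array without Gh. Pomc and Cga shared 3, or 75% of each. Tshb and Fshb were carried by the same 2 arrays. The genes sit on 7 different chromosomes.

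**Figure D3:**
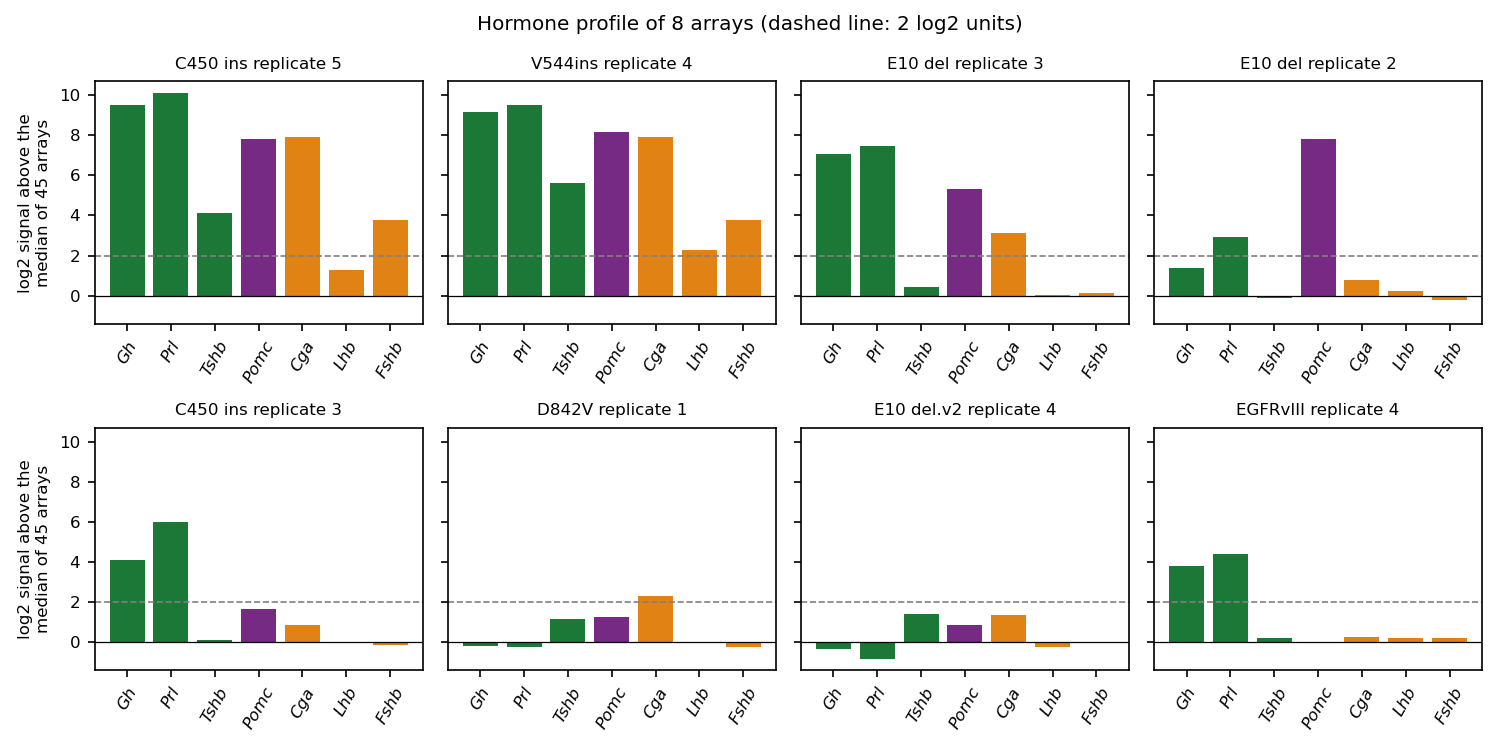
Log2 signal above each gene's median of 45 arrays (bars) for the 7 hormone genes on 8 arrays, coloured by the POU1F1-dependent hormones (green), Pomc (purple) and the alpha and gonadotropin subunits (orange); the dashed line is the 2-unit count. C450 ins replicate 5 and V544ins replicate 4 show nearly complete profiles, E10 del replicate 2 mainly Pomc, C450 ins replicate 3 and EGFRvIII replicate 4 mainly Gh and Prl, and D842V replicate 1 mainly Cga.

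Transcription factors of the anterior pituitary were set beside the hormones from a list of 15 genes, 13 of them measured. With the same count, C450 ins replicate 5 carried 3 of the 13 and V544ins replicate 4 carried 2, against the backgrounds of 0.889% and 1.16%. Lhx3, a homeobox factor needed to form the anterior lobe, was 6.15 and 6.46 on these arrays against a median of 3.12. Six6, an eye and pituitary homeobox factor, was 6.35 and 5.80 against 2.61. Neurod4, a factor of somatotrope development, was 6.34 on C450 ins replicate 5 and 4.66 on V544ins replicate 4 against 2.71. Pitx1, an early pituitary factor that acts on the Pomc promoter, was 5.09 and 5.33 against 3.35, under the 2-unit line on both. Tbx19, a corticotrope and melanotrope factor, was 3.80 and 3.76, and E10 del replicate 2 had 3.48 against a median of 2.92. The mean of the whole list was 4.96 on C450 ins replicate 5 and 4.88 on V544ins replicate 4, above every other array, the next being 4.18 on V544ins replicate 1. The median over the 45 arrays was 3.78.

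On the arrays with partial profiles those factors were near their medians. E10 del replicate 3, with Gh at 10.57, had Lhx3 at 3.24, Six6 at 2.92, Pitx1 at 3.11 and Neurod4 at 2.87. The factor it did carry, Isl1 at 8.10, is also a gene of striatal cholinergic and early striatal neurons, and that array carried 3 of 3 measured striatal genes and had the dopamine receptor gene Drd2 at 9.25. EGFRvIII replicate 4 had Lhx3 at 4.04 and carried 0 of the 13 factors, and V544ins replicates 5, 6, 7 and 9 carried 0 as well. C450 ins replicate 3 carried Isl1 alone, at 5.88. Isl1 was raised on 9 arrays in all, most of them without a hormone gene. Whether the signals of the factors scale with those of the hormones was not tested.

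The receptors through which the hypothalamus acts on the pituitary gave a mixed picture, with 9 of 10 measured. Drd2, the dopamine receptor of lactotropes and melanotropes that is also abundant in striatum, was 5.70 on C450 ins replicate 5 and 6.48 on V544ins replicate 4 against a median of 3.41, and it was carried by 9 arrays in all. Those 2 arrays carried 0 of 3 measured striatal genes, and the source of their Drd2 signal was not tested. Trhr, the thyrotropin-releasing hormone receptor of thyrotropes and of many brain neurons, was 8.07 on E10 del replicate 2, while C450 ins replicate 5 and V544ins replicate 4 had 3.02 and 2.88 against a median of 2.90. Gnrhr, the gonadotrope receptor, lay between 2.72 and 3.33 on all arrays. Of 10 measured genes of prohormone processing and secretory granules, C450 ins replicate 5 carried 2 and V544ins replicate 4 carried 0. The 2 were Resp18 at 10.23, raised on 7 arrays in all, and Chgb at 12.58, the highest Chgb signal of the 45 arrays. D842V replicate 1 carried 3 of the 10 and had the highest list mean, 10.36. That mean was 9.77 on C450 ins replicate 5 and 9.39 on V544ins replicate 4, against a median of 8.78. The genes of this list are also made by neurons. All 11 measured neuron genes lay below their medians on C450 ins replicate 5 and V544ins replicate 4, with Stmn2 at 3.77 and 3.42 against 8.36. Which cells gave the granule signals was not tested.

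Genes of the hypothalamus were high on other arrays than most of the hormones. The list of hypothalamic neuropeptides had 13 of 16 genes measured. E10 del.v2 replicate 4 carried 9 of them, V544ins replicate 1 carried 8, D842V replicates 1 and 3 carried 7 each and E10 del.v2 replicate 3 and C450 ins replicate 3 carried 5 each, whereas V544ins replicate 4 carried 1 and C450 ins replicate 5 carried 0. Pmch, the precursor of melanin-concentrating hormone from the lateral hypothalamus, was raised on 9 arrays. It was highest on E10 del.v2 replicate 3, at 11.76, followed by 11.16 on C450 ins replicate 3, 11.15 on E10 del.v2 replicate 4, 10.58 on D842V replicate 1 and 10.44 on D842V replicate 3. It was 3.05 on C450 ins replicate 5 and 3.32 on V544ins replicate 4, near its median of 3.38. The arrays with the highest Pmch differed in their hormones. C450 ins replicate 3 carried Gh and Prl, whereas D842V replicates 1 and 3 and E10 del.v2 replicate 4 had the intermediate Cga and Tshb signals without them. E10 del.v2 replicate 3 had neither, with Gh at 3.46, Tshb at 3.19, Cga at 2.92 and Prl near its median of 3.41. Pmch was also raised on D842V replicates 2 and 4, E10 del.v2 replicate 9 and EGFRvIII replicate 3. Their Cga was 3.01, 3.53, 2.56 and 3.17 and their Tshb 3.11, 3.44, 3.19 and 3.25. Conversely, C450 ins replicate 4, with Cga at 3.95 and Tshb at 4.02, carried Avp alone of the peptides. Gpr50, a gene of tanycytes, the glia that line the floor of the third ventricle, was 5.31 on D842V replicate 1 and 5.36 on E10 del.v2 replicate 4 against a median of 3.24. It was 3.53 on C450 ins replicate 5 and 4.30 on V544ins replicate 4. Of 4 tanycyte and median eminence genes, D842V replicate 1 carried 3 and E10 del.v2 replicate 4 carried Gpr50 alone. V544ins replicate 8, which carried no hormone gene and no hypothalamic peptide, also carried Gpr50. The mean of these 4 genes was highest on E10 del replicate 2, at 7.63, where Gpr50 was 3.47. The hypothalamic transcription factors Sim1, Otp, Rax and Nkx2-1 were carried by 0 arrays.

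The 4 arrays with Pomc differed in the same respect. E10 del replicate 2 carried 4 of 13 hypothalamic peptides, Sst at 10.56, Tac2 at 6.97, Cartpt at 6.82 and Avp at 6.11, but its Pmch was 3.06. It also carried 9 of 10 choroid plexus genes and had the highest signal of 8 of them, Ttr, the transthyretin gene, at 13.42 among them. C450 ins replicate 5 carried 1 choroid plexus gene, Aqp1, and V544ins replicate 4 carried 0, with Ttr at 5.07 and 4.04, below its median of 8.02. C450 ins replicate 5 alone among the hormone arrays carried genes of the pineal list, Tph1 at 6.67 and Sag at 7.01, while Aanat, the enzyme that defines melatonin synthesis, was 4.04 against a median of 3.70. D842V replicate 5, with no hormone gene, had Tph1 at 7.25. The part of neighbouring brain regions in the hormone signals was not tested.

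**Figure D4:**
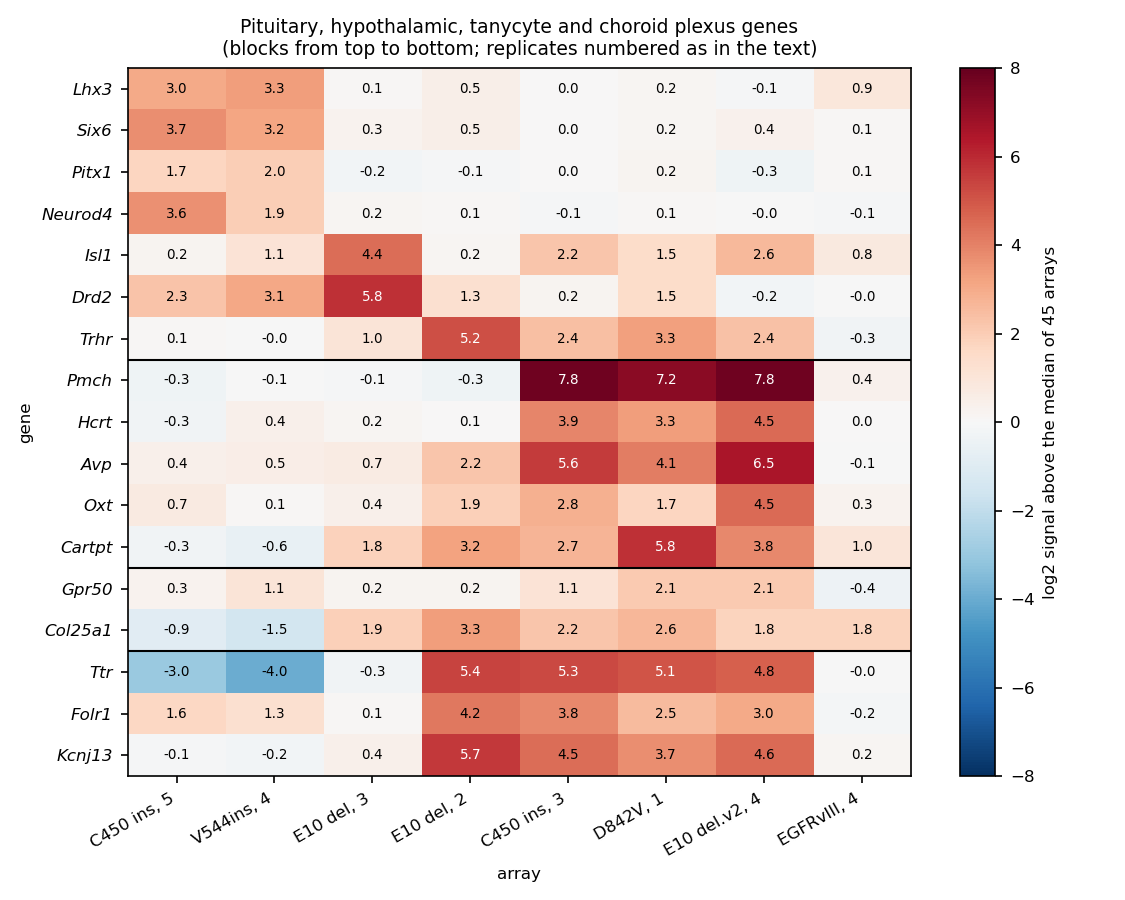
Log2 signal above each gene's median of 45 arrays (colour and number) for pituitary factors and receptors (Lhx3 to Trhr), hypothalamic peptides (Pmch to Cartpt), tanycyte genes (Gpr50, Col25a1) and choroid plexus genes (Ttr, Folr1, Kcnj13) on 8 arrays. Lhx3, Six6, Pitx1 and Neurod4 lie above their medians on C450 ins replicate 5 and V544ins replicate 4. Hypothalamic peptides and choroid plexus genes do so on C450 ins replicate 3, D842V replicate 1 and E10 del.v2 replicate 4. On E10 del replicate 2 the choroid plexus genes do so together with Avp, Oxt and Cartpt, while Pmch and Hcrt lie near their medians.

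Tumour genes were present on the hormone arrays. Olig1, an oligodendrocyte lineage factor high in these tumours, was 12.85 on C450 ins replicate 5 and 12.53 on V544ins replicate 4, near its median of 12.94. It was lower on E10 del replicates 2 and 3, at 10.99 and 10.76, and on EGFRvIII replicate 4, at 10.94. V544ins replicates 6, 7 and 9, which carried Prl and partly Gh, had 13.30, 13.46 and 13.36. The list mean of 7 measured progenitor genes was 9.79 on C450 ins replicate 5 and 9.51 on V544ins replicate 4, against a median of 9.75 over all arrays. It was 7.47 on E10 del replicate 3, 7.65 on E10 del replicate 2 and 7.90 on EGFRvIII replicate 4, so arrays rich in hormone genes lay both near and below that median.

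C450 ins replicate 5 and V544ins replicate 4 also shared other genes. The counts given here are over all genes, the hormone genes included. With the 2-unit count, 152 genes were raised on C450 ins replicate 5 and 198 on V544ins replicate 4, and 57 were raised on both, which is 37.5% and 28.8% of each list. C450 ins replicate 5 also shared 47 genes (30.9% of its list) with EGFRvIII replicate 4 and 45 (29.6%) with V544ins replicate 5, which carried Prl alone. V544ins replicate 4 shared 106 (53.5%) with V544ins replicate 5, more than with C450 ins replicate 5. E10 del replicate 3 shared 7 raised genes with each of C450 ins replicate 5 and V544ins replicate 4. V544ins replicates 7 and 9, both with Gh and Prl, shared 24 genes, or 40.7% and 60% of their lists. D842V replicate 1 and C450 ins replicate 3 shared 47, or 16% and 77%.

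Genes whose pattern over the 45 arrays was most like a hormone were ranked by Pearson's r of log2 signals, given as a description without a p. For Gh they were Hepacam2 (r = 0.80), Six6 (0.79), Lhx3 (0.78), Cyp2f2, a cytochrome P450 gene (0.78), Rab25, an epithelial Rab GTPase gene (0.77), Esrp1, an epithelial splicing factor gene (0.76), the tight junction gene Cldn3 (0.73), Tmem184a (0.72), the carboxylesterase gene Ces1d (0.71) and Rph3al, a gene of granule exocytosis (0.70). Without C450 ins replicate 5 and V544ins replicate 4 these 10 values were 0.07 to 0.37, so the likeness rested on those arrays. Cyp2f2 shows why, with 7.84 and 8.63 there and at most 4.47 elsewhere. For Cga the same 2 arrays gave r of 0.94 for Six6, 0.93 for Hepacam2, 0.92 for Cyp2f2, 0.91 for Esrp1 and 0.89 for Lhx3, and 0.16 to 0.50 without them. Prl was most like Six6 (0.75), Hepacam2, Lhx3, Cyp2f2 and Smim22 (0.73), and without those arrays these 5 values were 0.31 to 0.49.

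The closest genes of Pomc overlapped with those of the other hormones. They were Smim22, which encodes a small membrane protein (0.85), Cyp2f2 (0.83), Pappa2, a protease of IGF-binding proteins (0.81), Cldn3 (0.80) and Six6 (0.77). Without the farthest arrays, V544ins replicate 4 and E10 del replicate 2, the values were 0.63 to 0.78, but C450 ins replicate 5 was still among the arrays, so these cannot be set against the values of the other hormones. Pappa2 was 4.86 on E10 del replicate 2, 5.63 on C450 ins replicate 5 and 4.68 on V544ins replicate 4, against a median of 2.90. Cyp2f2 was 4.47 on E10 del replicate 2 and 3.17 on E10 del replicate 3, against a median of 2.67. The arrays share a normalisation, and these correlations are over arrays that also differ in brain content.

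Setting the 6 PDGFRA mutants against EGFRvIII asked whether tumours of a mutant receptor differ from those of another receptor. The 4 hormone genes that passed the filter gave no call. The fit takes 1 spread per gene for all groups, although their SDs differ widely. The lack of a call therefore does not show equal levels. Gh averaged 3.36 ± 0.15 in D842V (SD, n = 5), 6.20 ± 4.23 in C450 ins (n = 5), 5.25 ± 3.03 in E10 del (n = 5), 5.67 ± 3.05 in V544ins (n = 9), 3.33 ± 0.16 in E10 del.v2 (n = 9), 3.71 ± 0.54 in E7 del (n = 3) and 3.97 ± 1.35 in EGFRvIII (n = 8). In order of level C450 ins came first, then V544ins, E10 del, EGFRvIII, E7 del, D842V and E10 del.v2, and no neighbours in that order differed by more than the larger of their SDs. The WT array had 3.15. The SDs of the first 3 groups exceeded 3 log2 units because 1 or a few arrays carried the gene, and all groups overlapped.

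Between the mean of the 6 mutants and EGFRvIII, the limma difference of Gh was 0.61 ± 0.89 (SE, adjusted p = 0.671), that of Prl 0.51 ± 0.96 (adjusted p = 0.751), that of Pomc 0.99 ± 0.80 (adjusted p = 0.415) and that of Cga 0.65 ± 0.68 (adjusted p = 0.536). In this comparison 8.9% of all 11809 genes tested were called at an adjusted p under 0.05, and 0 of the 4 hormone genes, of which 0 had an unadjusted p under 0.05 in limma. The median difference over all genes was -0.02. Title numbers 41 to 64 hold all EGFRvIII arrays but, of the mutants, V544ins, E10 del.v2 and E7 del alone. Within them the differences between these 3 mutants and EGFRvIII were 0.60 ± 0.80 for Gh, 0.20 ± 0.85 for Prl, 0.24 ± 0.77 for Pomc and 0.35 ± 0.72 for Cga. Without C450 ins replicate 5 and V544ins replicate 4, an exclusion chosen after seeing the data, the differences of all 6 mutants were 0.18 ± 0.60 for Gh and 0.08 ± 0.70 for Prl. Single arrays moved them both ways. Without EGFRvIII replicate 4 they were 1.09 ± 0.92 for Gh and 1.05 ± 0.99 for Prl, without C450 ins replicate 5 they were 0.33 ± 0.76 and 0.22 ± 0.84, and without E10 del replicate 3 they were 0.39 ± 0.82 and 0.30 ± 0.91. The Cga difference was 0.41 ± 0.54 without C450 ins replicate 5. With the title range as a block the differences were 1.55 ± 1.11 for Gh and 1.42 ± 1.21 for Prl, and no hormone gene was called in any of these fits.

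**Figure D5:**
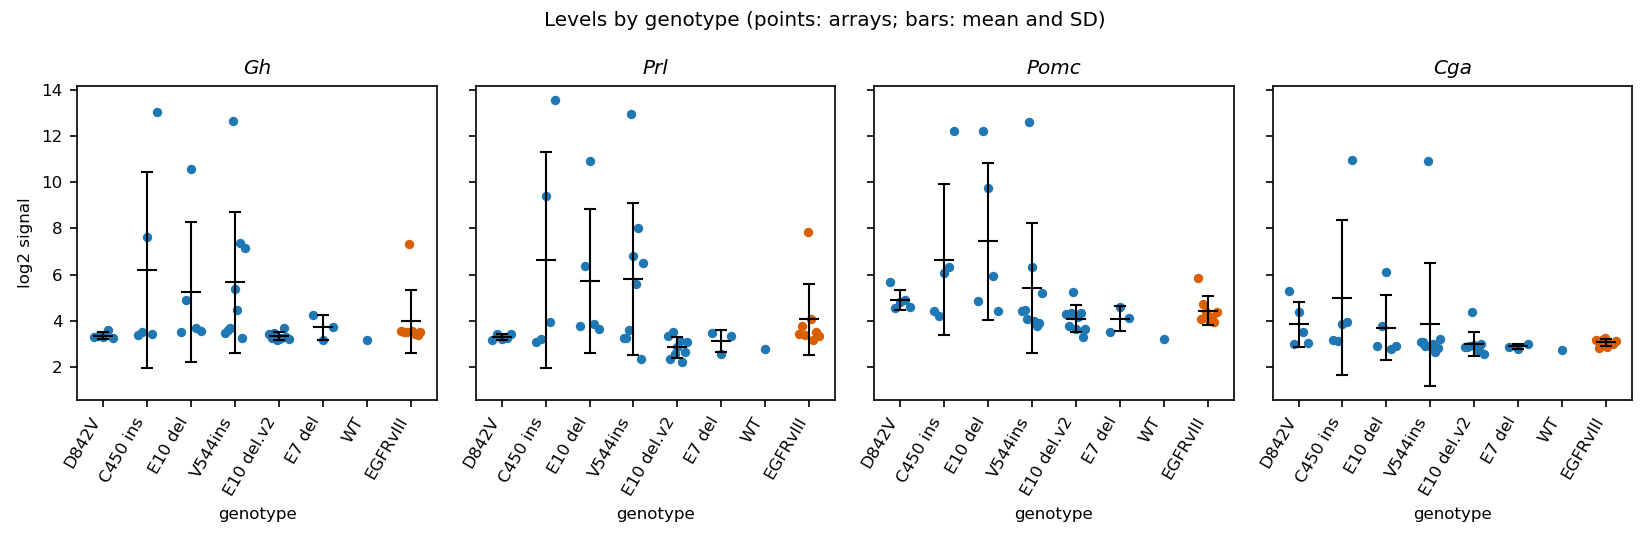
Log2 signal of Gh, Prl, Pomc and Cga by genotype (points are arrays, bars are mean and SD; WT is 1 array). Gh reaches 13.03 in C450 ins, 10.57 in E10 del and 12.66 in V544ins, with further arrays at 7.63 in C450 ins, at 7.37 and 7.15 in V544ins and at 7.32 in EGFRvIII, while D842V, E10 del.v2 and E7 del show no array that carries Gh.

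Among the 6 mutants, limma's moderated F test called 0.576% of the genes and 0 of the 4 hormone genes, with adjusted p of 0.243 for Prl, 0.270 for Pomc, 0.348 for Gh and 0.612 for Cga. Prl and Pomc had unadjusted p of 0.0294 and 0.0461. Prl averaged 3.30 ± 0.13 in D842V (SD, n = 5), 6.63 ± 4.66 in C450 ins (n = 5), 5.71 ± 3.11 in E10 del (n = 5), 5.81 ± 3.30 in V544ins (n = 9), 2.85 ± 0.45 in E10 del.v2 (n = 9), 3.13 ± 0.48 in E7 del (n = 3) and 4.06 ± 1.55 in EGFRvIII (n = 8). Pomc averaged 4.90 ± 0.45 in D842V, 6.65 ± 3.27 in C450 ins, 7.44 ± 3.40 in E10 del, 5.42 ± 2.81 in V544ins, 4.08 ± 0.58 in E10 del.v2, 4.08 ± 0.54 in E7 del and 4.43 ± 0.62 in EGFRvIII. The first place thus fell to C450 ins for Prl and to E10 del for Pomc, and neighbours in either order differed by less than the larger of their SDs.

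D842V was compared with the other 5 mutants because hypothalamic and choroid plexus genes were known to be high in several D842V arrays. Of all genes 0.584% were called, and 0 of the 4 hormone genes, of which 0 had an unadjusted p under 0.05 in limma. The differences were -1.47 ± 1.09 for Gh (SE, adjusted p = 0.689), -1.53 ± 1.19 for Prl (adjusted p = 0.708), -0.63 ± 0.98 for Pomc (adjusted p = 0.886) and 0.16 ± 0.84 for Cga (adjusted p = 0.971). Cga in D842V rested on replicate 1, and without that array its difference was -0.19 ± 0.92. The 5 D842V arrays had Cga at 5.28, 3.01, 4.39, 3.53 and 3.03, Tshb at 4.40, 3.11, 4.15, 3.44 and 3.39 and Prl between 3.15 and 3.44. Cga and Tshb thus ranked the 5 D842V arrays alike, with replicate 1 highest, while Prl was low on all of them.

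Numbers in the sample titles fall into the ranges 1 to 30 and 41 to 64, and the labels do not say that these are batches. Hormone genes were carried by 6 of the 24 arrays of the upper range and 5 of the 21 of the lower range. V544ins and E10 del.v2 are the genotypes with arrays in both ranges. Over those 18 arrays the upper minus lower difference was 1.53 ± 0.92 for Gh (SE, adjusted p = 0.289), 1.49 ± 0.96 for Prl (adjusted p = 0.326), 0.68 ± 0.96 for Pomc (adjusted p = 0.665) and 0.74 ± 0.92 for Cga (adjusted p = 0.621) by limma. In this comparison 5.47% of all genes were called, and 0 of the 4 hormone genes, with 0 at an unadjusted p under 0.05. Without V544ins replicate 4 the differences were 0.93 for Gh, 0.90 for Prl, 0.02 for Pomc and 0.07 for Cga. All 5 V544ins arrays that carried a hormone gene lay in the upper range, where 6 of that genotype lie, and 0 of the 3 in the lower range did. For Prl the range difference was 4.37 ± 1.93 larger in V544ins than in E10 del.v2 (adjusted p = 0.149), so a difference between the genotypes was not called.

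The hormone arrays often had neighbouring title numbers. E10 del replicates 3 and 2 are titles 18 and 19, C450 ins replicates 5 and 3 are titles 29 and 30, V544ins replicates 9 and 7 are titles 51 and 52 and V544ins replicates 5 and 4 are titles 61 and 62. EGFRvIII replicate 4 is title 45, V544ins replicate 6 is title 49 and D842V replicate 1 is title 2. In 3 of the 4 neighbouring pairs 1 array had Gh and Prl above 10 log2 units and the other had lower values of both, whereas titles 51 and 52 were alike in Gh at 7.15 and 7.37. V544ins replicates 4 and 5 shared 106 raised genes, or 53.5% and 58.2% of their lists. Both had Ucn3, a urocortin gene, above its median of 3.16, at 6.68 and 8.77. Ucn3 was raised on 7 arrays in all, every D842V array among them. C450 ins replicates 5 and 3 shared 8 raised genes, or 5.3% and 13.1%, and E10 del replicates 3 and 2 shared 198, or 42.1% and 39.2%. What order the title numbers follow is not stated in the labels, and arrays of 1 genotype also have neighbouring numbers, so the order and the genotype cannot be told apart.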

How the data were processed

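RNA of 45 mouse brain tumours was extracted with Trizol and 100 ng of total RNA was labelled with biotin, per the labels' protocols. The deposited values are log2 signals, which the authors made with RMA per the submitters' processing notes; its version and settings are not given in the sources used here. The table held 45141 probe sets with array medians from 4.66 to 4.85 and was used as deposited. Of the probe sets, 28898 matched 1 gene symbol, 551 several and 15692 none, and 28689 matched a RefSeq gene by Entrez number, which changed 0 symbols. A gene (17097 in all) was represented by its probe set of highest mean signal, and signals of different probe sets were not compared as levels. Group means of 8 genotypes were estimated by lmFit and eBayes of limma (version 3.58.1, under R 4.3.3) on 11809 genes above the table median on at least 3 arrays, with Benjamini-Hochberg adjustment over all of them. The mutants were taken as the unweighted mean of 6 group means. The fit was tested on simulated data. The files name no genome build, and coordinates are those of RefSeq on GRCm38.p6.

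The hormone genes, the other gene lists and the tests were chosen with earlier results of these data known. Replicate numbers follow table order and pair nothing. Genes most like a hormone gene were the 10 of highest Pearson's r for Gh and the 5 of highest r for Prl, Pomc and Cga, with predicted and clone genes passed over. List genes were named where they were highest or lowest in an array with hormone genes or define a tissue. Alternatives were other filters, the mean of all probe sets, centred arrays, quantile normalisation, a trended and robust prior, array weights, the title range as a block or alone, leaving out each array, and other levels for carrying a gene. Pou1f1 and the promoter of Gh were not used here. The number of arrays limits the precision.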

Additional observations from a re-analysis of the deposited data

Results flagged for a closer look

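In groups of 4 to 10 arrays, a highest or lowest array was singled out when its gap to the nearest of the others, over the range of the group, exceeded Dixon's 95% critical value. Of 42 groups of a gene examined, 17 had such an array, and chance gives about 1 in 20. The hormone genes were picked because they are low on most arrays and high on a few, so the number of high arrays was set by that choice and is not to be read against the chance share. All 17 stood high. V544ins replicate 4 had Gh at 12.66, where the other 8 arrays had 3.26 to 7.37, Tshb at 8.84, Pomc at 12.59, Cga at 10.91, Lhb at 5.08 and Fshb at 6.45. C450 ins replicate 5 had Tshb at 7.36, Pomc at 12.23, Cga at 10.94, Lhb at 4.10 and Fshb at 6.43. Its Gh at 13.03 and Prl at 13.54 did not pass, and C450 ins replicate 3 stood between them and the rest.

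E10 del replicate 3 had Gh at 10.57, where the other 4 arrays had 3.52 to 4.89. EGFRvIII replicate 4 had Gh at 7.32, where the other 7 had 3.37 to 3.57, and Prl at 7.83, where they had 3.16 to 4.06. EGFRvIII replicate 1 had Pomc at 5.85, where the others had 3.95 to 4.71. E10 del.v2 replicate 4 had Tshb at 4.63 and Cga at 4.36, where the other 8 arrays had at most 3.29 and 2.97. The genes of an array are not independent, so these counts describe a few arrays.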

How the results depend on the processing

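The count of hormone genes called stayed at 0 under every alternative in the comparisons of the mutants with EGFRvIII and of the title ranges. With array weights it was 3 among the 6 mutants (Gh, Prl and Pomc, adjusted p = 0.000333, 4.49e-05 and 3.85e-05) and 1 for D842V (Prl, -1.78, adjusted p = 0.0463). That setting called 10855 and 4672 of 11809 genes in these comparisons, against 68 and 69 without weights, and gave C450 ins replicate 3 a weight of 9.94 and V544ins replicate 4 one of 0.37. The cause was not tested. Leaving out 1 array at a time kept all 4 counts at 0. The one change of direction was Cga in D842V, which ranged from -0.19, without D842V replicate 1, to 0.46. With the title range as a block the mutants differed from EGFRvIII by 1.55 in Gh, 1.42 in Prl, 1.41 in Pomc and 1.11 in Cga, none of them called. The 11 arrays with a hormone gene were 14 at 1 log2 unit, 9 at 3 units, and 11 with the mean of probe sets or quantile normalisation. Lhb was carried by 0 arrays at 3 units. The exclusion of C450 ins replicate 5 and V544ins replicate 4 together was chosen after seeing the data. Titles 41 to 64 alone hold no D842V array and titles 1 to 30 alone no EGFRvIII array. D842V was therefore not compared in the former, nor EGFRvIII in the latter. The other comparisons of genotypes within a range were run. No paired analysis was possible because the labels give no shared replicate numbers. Low signals near the floor of the arrays limit what can be said of Tshb, Lhb and Fshb outside the arrays named.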
